A study of Mus musculus with 10 samples.

Results

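The BAF (BRG1/BRM-associated factor) complex, the mammalian SWI/SNF chromatin remodeler, was examined through the 9 genes that encode its ATPases and its core subunits: *Smarca4*, *Smarca2*, *Smarcc1*, *Smarcc2*, *Smarcd1*, *Smarcd2*, *Smarcd3*, *Smarcb1* and *Smarce1*. They were chosen by name as the catalytic and scaffold genes of the complex. All 9 were among the 18444 genes of the expression table, and all 9 were among the 17020 genes with a mean of at least 10 normalised reads that were tested.

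Poly-A-selected mRNA had been sequenced from whole brains of male mice of the C57BL/6N strain at postnatal day 3. One group of 5 mice was heterozygous for *Arid1b* (HT): 1 allele carried a CRISPR/Cas9 edit in exon 5 that truncates the protein, in every cell of the body. The other group of 5 mice was wild type (WT), and both groups came from matings of HT fathers with WT mothers. Each mouse gave 1 library, and the labels name no treatment. The labels do not say which pups shared a litter.

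ARID1B is itself a BAF subunit, which with its paralog ARID1A defines the canonical form of the complex. A BAF complex holds a single ATPase, either SMARCA4 (BRG1) or SMARCA2 (BRM), which uses ATP to slide or evict nucleosomes. SMARCC1 and SMARCC2 pair to form the scaffold on which the complex is assembled, 1 SMARCD protein joins from a set of paralogs, SMARCB1 contacts the nucleosome, and SMARCE1 holds a DNA-binding HMG domain. In the developing brain the complex exchanges some of its subunits as progenitors become neurons, and mutations of several of these genes, *ARID1B* foremost, cause Coffin-Siris syndrome. The comparison asks whether the mRNA of the core differed in brains in which the *Arid1b* mRNA was lowered.

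The promoters are shown for the ATPase pair and the SMARCD trio. The balance between paralogs is followed below in these families and in the SMARCC pair, whose windows were searched but are not printed. Each window runs from 250 bases before to 50 bases after the start that RefSeq gives, on the GRCm38.p6 build, and is written 5′ to 3′ on the strand of the gene. Capitals mark 8 searched motifs on either strand: the GC box GGGCGG, the CCAAT box, the TATA word TATAAA, the ETS word CCGGAAG, the NRF1 word TGCGCA, the YY1 word AAGATGG, the E box CACGTG and the CRE TGACGTCA. In *Smarcd3* a pair of GC boxes overlap in 1 run of capitals.
Smarca4, chr9:21615919-21616218, + strand: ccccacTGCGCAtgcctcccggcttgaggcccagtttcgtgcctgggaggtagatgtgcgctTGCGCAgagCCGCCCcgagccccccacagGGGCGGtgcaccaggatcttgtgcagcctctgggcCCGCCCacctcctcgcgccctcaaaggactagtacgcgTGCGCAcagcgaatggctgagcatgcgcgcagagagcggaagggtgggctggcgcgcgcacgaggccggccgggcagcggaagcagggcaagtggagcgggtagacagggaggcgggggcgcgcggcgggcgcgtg
Smarca2, chr19:26604910-26605209, + strand: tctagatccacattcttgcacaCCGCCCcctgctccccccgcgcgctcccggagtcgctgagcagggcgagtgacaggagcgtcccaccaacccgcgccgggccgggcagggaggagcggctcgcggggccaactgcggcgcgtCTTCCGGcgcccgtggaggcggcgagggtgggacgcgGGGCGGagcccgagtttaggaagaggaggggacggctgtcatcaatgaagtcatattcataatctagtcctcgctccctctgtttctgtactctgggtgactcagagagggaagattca
Smarcd1, chr15:99702037-99702336, + strand: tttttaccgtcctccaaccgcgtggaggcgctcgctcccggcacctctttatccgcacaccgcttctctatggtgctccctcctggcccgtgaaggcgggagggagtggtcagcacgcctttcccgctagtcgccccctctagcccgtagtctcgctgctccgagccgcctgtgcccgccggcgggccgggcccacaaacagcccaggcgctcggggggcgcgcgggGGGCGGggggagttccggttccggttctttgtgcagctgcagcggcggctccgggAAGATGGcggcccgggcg
Smarcd2, chr11:106267583-106267882, - strand: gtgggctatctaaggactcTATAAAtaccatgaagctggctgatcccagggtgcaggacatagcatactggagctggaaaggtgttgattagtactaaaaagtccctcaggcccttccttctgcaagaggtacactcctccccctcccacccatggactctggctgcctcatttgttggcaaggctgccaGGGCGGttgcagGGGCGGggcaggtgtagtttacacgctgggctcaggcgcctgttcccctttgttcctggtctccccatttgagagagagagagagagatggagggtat
Smarcd3, chr5:24601953-24602252, - strand: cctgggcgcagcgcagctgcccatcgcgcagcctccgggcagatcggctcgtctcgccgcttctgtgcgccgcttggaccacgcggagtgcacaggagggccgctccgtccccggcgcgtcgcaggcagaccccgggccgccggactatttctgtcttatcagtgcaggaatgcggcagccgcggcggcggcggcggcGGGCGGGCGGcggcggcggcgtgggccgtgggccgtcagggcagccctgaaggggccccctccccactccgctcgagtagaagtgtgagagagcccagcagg

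Windows were found for 8 of the 9 genes, *Smarce1* being the one without an entry. The GC box was present in 8 of 8 windows, against 35.7% of all 32851 promoter windows. The windows were not matched for base composition, on which the frequency of such a word depends. The number of CpG dinucleotides was between 27 and 48 in 7 of the windows (29 for *Smarca2*, 33 for *Smarca4*, 35 for *Smarcd1* and 40 for *Smarcd3*) and 4 in that of *Smarcd2*, with a median of 7 over all windows. *Smarcd2* was also the 1 gene with the TATA word, which 13.6% of all windows hold. The NRF1 word stood in 3 of 8 windows (*Smarca4*, where it occurs 3 times, *Smarcb1* and *Smarcc1*; 7.76% of all windows), the ETS word in 2 (*Smarca2* and *Smarcc1*; 8.86%) and the YY1 word in 1 (*Smarcd1*; 6.34%). The CCAAT box, the E box and the CRE were in 0 of 8, against 37.4%, 7.15% and 1.79% of all windows. For *Smarcc1*, *Smarcd2* and *Smarcd3* the RefSeq start lies more than 1000 bases inside the gene as GENCODE draws it, so these genes have starts other than the one searched. For the other 5 it lies at most 158 bases inside. These matches describe letters in the windows, and no binding was measured here.

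The edited gene was read first. The normalised read count of *Arid1b* was 2372, 2230, 2253, 1505 and 2142 in HT 1 to 5 and 3386, 3155, 3597, 3429 and 3108 in WT 1 to 5. Every HT library lay below every WT library, with HT 4 the lowest. The HT level was 62.3% of WT (95% interval 53.2 to 73.0%), a log2 fold change of -0.68 ± 0.11 (SE). The exact permutation test gave its lower limit for groups of 5 (p 0.00794), whereas the limma p of 2.29e-05 became 0.390 after Benjamini-Hochberg adjustment over all genes. The adjusted limma p was 2.52e-04 without HT 4. Normalised totals were between 27.2 and 29.0 M reads, HT 4 again the lowest, and the median absolute log2 deviation of its genes from the mean of all libraries was 0.209 against 0.0772 to 0.108 in the other 9. All 12 markers of neurons were present, the least abundant at a mean of 3645 normalised reads.

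None of the 9 core genes differed between HT and WT at an adjusted limma p under 0.05. Over all genes tested this call was made for 0% (0 of 17020), and an unadjusted p under 0.05 was reached by 0 of the 9 genes and by 3.41% of all genes. In an exact permutation test of each gene alone, 1 of 9 had a p under 0.05 (*Smarcd3*), against 3.9% of all genes. No core gene had HT and WT values that did not overlap, which 0.629% of all genes had. The core genes divided into 4 higher and 5 lower in HT. Their median log2 fold change was -0.01, and that of all genes was -0.01. In RNA from whole brain, fewer cells of a type and less RNA per cell cannot be told apart.

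The precision of these comparisons was high for most of the 9 genes. The 95% limma intervals ran no lower than 86.8% of WT (*Smarcd2*) and no higher than 114% of WT (*Smarcd3*). All 9 intervals lay above the whole interval of *Arid1b*. The SD within groups was between 0.05 (*Smarca2*) and 0.16 (*Smarcc2*) on the log2 scale, with 0.16 as the median of all genes tested, and *Smarca2*, *Smarcd3* and *Smarce1* were among the 4% of tested genes with the smallest spread (percentiles 2.59, 2.87 and 3.99). Genes with many reads vary less than genes with few, so these percentiles depend on the level as well.

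**Figure D1:**
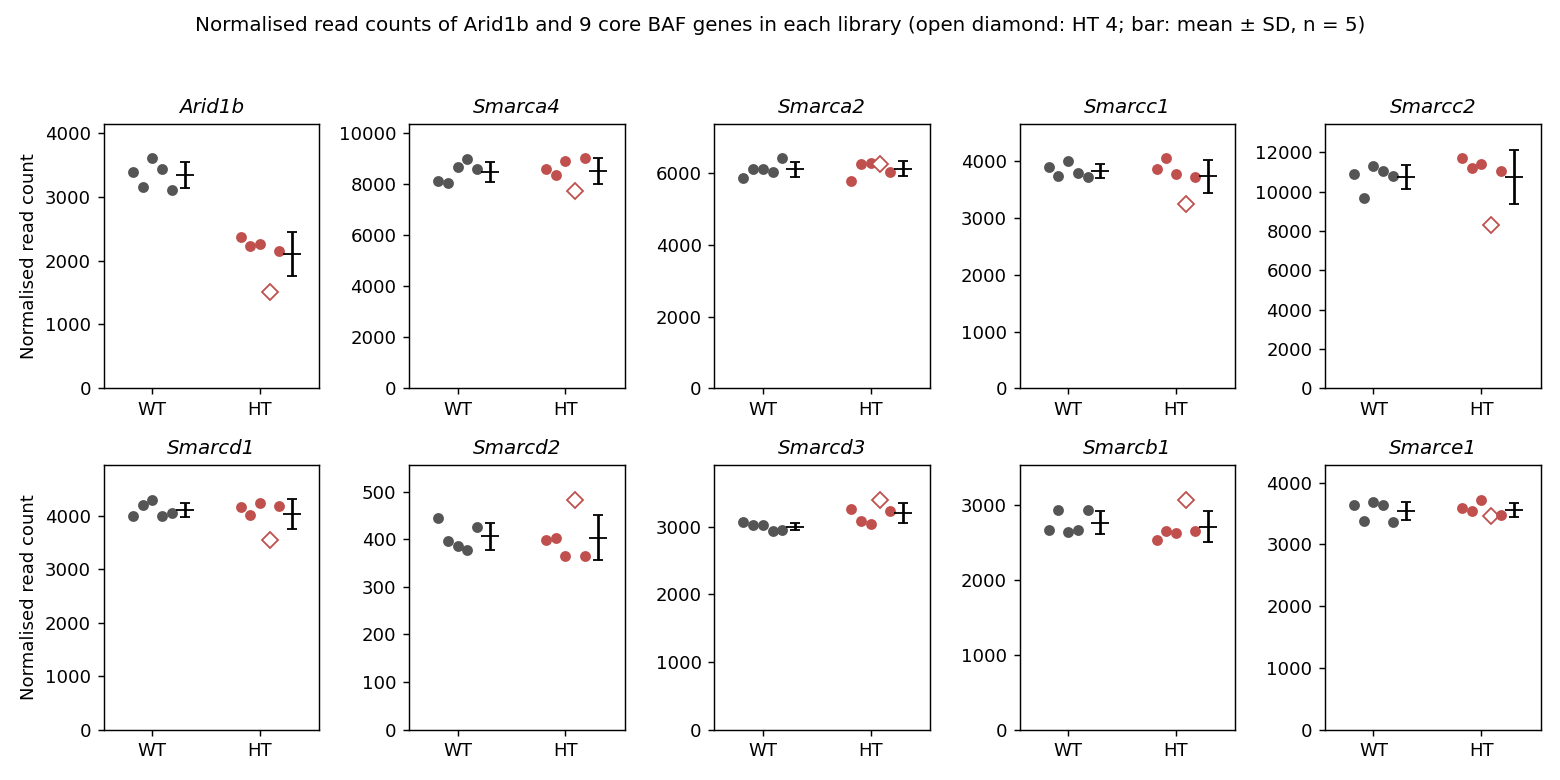
Normalised read counts of *Arid1b* and the 9 core BAF genes in each of the 5 WT (grey) and 5 HT (red) libraries, one gene per panel with the axis from 0; open diamonds mark HT 4 and black bars the mean ± SD. *Arid1b* separates the groups, while the values of the other 9 genes overlap, with HT 4 at 8317 for *Smarcc2*.

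Among the ATPases, *Smarca4* and *Smarca2* had almost the same mean in both groups. *Smarca4*, which encodes the ATPase BRG1 that dominates in embryonic and progenitor cells, had 8563, 8334, 8905, 7721 and 8989 normalised reads in HT 1 to 5 and 8123, 8010, 8635, 8959 and 8589 in WT 1 to 5. The highest and the lowest of these 10 values were both from HT libraries, and the groups overlapped. The HT level was 100.4% of WT (95% interval 92.8 to 109%), or 0.01 ± 0.05 (SE) on the log2 scale (limma p 0.914). *Smarca2*, which encodes the alternative ATPase BRM, had 5784, 6238, 6273, 6244 and 6031 normalised reads in HT and 5864, 6102, 6103, 6023 and 6406 in WT. Its lowest value came from HT and its highest from WT. The HT level was 100.2% of WT (93.9 to 107%), with a limma p of 0.939, and this was the steadiest of the 9 genes, with a coefficient of variation of 3.13% over the 10 libraries.

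The scaffold pair was near the WT level too, but its values moved with HT 4. *Smarcc1* had 3863, 4054, 3782, 3249 and 3730 normalised reads in HT and 3898, 3752, 4010, 3790 and 3721 in WT. *Smarcc2*, whose product joins SMARCC1 in the scaffold and is a known regulator of cortical size, had 11694, 11192, 11396, 8317 and 11053 in HT and 10913, 9674, 11309, 11069 and 10794 in WT. In both genes HT 4 was the lowest of all 10 libraries. The HT level was 97.2% of WT for *Smarcc1* (89.1 to 106%; limma p 0.495) and 99.2% for *Smarcc2* (87.3 to 113%; limma p 0.895). Without HT 4 the value of *Smarcc2* became 105.5% of WT (99.1 to 112%), 0.08 on the log2 scale (limma p 0.0898, adjusted 0.658), and that of *Smarcc1* became 100.6%.

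The SMARCD proteins, which link the complex to transcription factors such as nuclear receptors, are encoded by 3 paralogs. *Smarcd3*, the paralog best known from heart and muscle development and from neurons, had 3265, 3084, 3037, 3397 and 3228 normalised reads in HT and 3061, 3030, 3017, 2935 and 2954 in WT. In HT 1, 2, 4 and 5 it was above every WT library, and HT 3 stood between WT 2 and WT 1, so that the groups overlapped. The mean of the HT libraries was 3202 ± 145 and that of the WT libraries 2999 ± 53.2 (SD, n = 5), 106.7% of WT (99.7 to 114%) and a log2 fold change of 0.09 ± 0.05 (SE). The exact permutation p was 0.0159 with all libraries and 0.0159 without HT 4, while the limma p was 0.0588, and 1.00 after Benjamini-Hochberg adjustment over all genes. It was higher in HT under all 24 settings tried, with adjusted limma p values from 0.541 to 1.00, so *Smarcd3* did not pass the test under any of them.

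*Smarcd1*, the most widely expressed SMARCD gene, had 4160, 4021, 4234, 3542 and 4181 normalised reads in HT and 3991, 4190, 4298, 3995 and 4049 in WT. *Smarcd2*, known for its part in granulocyte development, had 399, 403, 366, 483 and 365 in HT and 445, 396, 387, 378 and 425 in WT. HT 4 was the lowest of all libraries for *Smarcd1* and the highest for *Smarcd2*. The HT level was 98.0% of WT for *Smarcd1* (90.2 to 106%; limma p 0.599) and 99.0% for *Smarcd2* (86.8 to 113%; limma p 0.876).

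*Smarcb1*, a tumor suppressor gene lost in rhabdoid tumors, had 2534, 2654, 2627, 3067 and 2648 normalised reads in HT and 2658, 2924, 2631, 2663 and 2928 in WT. HT 4 was its highest library, and the other 4 HT libraries lay among or below the lower WT values. The HT level was 97.9% of WT (89.5 to 107%; limma p 0.621), and 94.8% (88.7 to 101%; limma p 0.111) without HT 4. *Smarce1* had 3593, 3535, 3722, 3455 and 3478 in HT and 3630, 3379, 3686, 3633 and 3368 in WT, at 100.5% of WT (93.8 to 108%; limma p 0.870). For *Smarce1*, 16.2% of the 31-base words of its transcripts also occur in other genes, its pseudogene *Smarce1-ps1* among them, so its reads may be divided with them. The share was 4.60% for *Smarcc1*, 3.99% for *Smarcb1* and under 1.3% for the other 6.

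**Figure D2:**
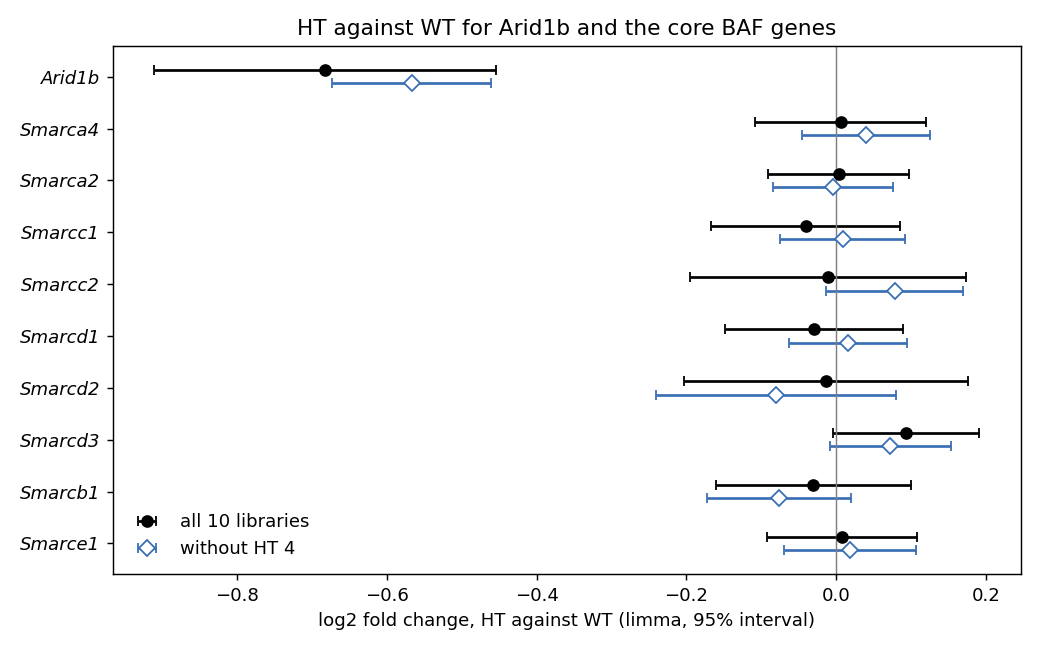
Log2 fold change of HT against WT with its 95% limma interval for *Arid1b* and the 9 core genes, from all 10 libraries (black circles) and without HT 4 (blue open diamonds). The intervals of the 9 core genes include 0 both ways, and lie to the right of that of *Arid1b* (-0.68 and -0.57).

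In most of the 9 genes HT 4 was at a distance from its group, in both directions. Its log2 distance from the mean of the other 4 was -0.45 for *Smarcc2*, -0.25 for *Smarcc1*, -0.23 for *Smarcd1* and -0.17 for *Smarca4*, and 0.33 for *Smarcd2*, 0.23 for *Smarcb1* and 0.11 for *Smarcd3*. It was small for *Smarce1* (-0.05) and *Smarca2* (0.04). The 3 core genes whose longest coding transcript is shortest, *Smarcb1* (1660 bases), *Smarcd3* (1735) and *Smarcd2* (2747), were the 3 that stood highest in HT 4. This order holds for the longest transcript only. By the median length of the coding transcripts *Smarcd1* (712 bases) and *Smarca2* (834) are shortest, at -0.23 and 0.04 in HT 4. Across all genes the correlation of the deviation of a library with length was taken on the median transcript length. This Spearman correlation was -0.38 in HT 4 and between -0.13 and 0.26 in the others, a description over genes of 1 library. Without HT 4 the 9 genes divided into 6 higher and 3 lower, with a median log2 fold change of 0.02 and 0 past an adjusted or an unadjusted limma p of 0.05. Over all genes 0.0118% passed the adjusted and 8.4% the unadjusted threshold in that fit.

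Marker lists of other cell types are given beside these values, and their part in the results was not tested. The summed choroid plexus markers were 8766 to 11818 normalised reads in HT and 12537 to 16520 in WT and did not overlap. How often sums of other gene lists separate the groups was not computed. An unadjusted limma p under 0.05 was reached by 5 of the 10 choroid plexus genes, against 3.41% of all genes. It was reached by 2 proliferation, 1 neural stem and radial glia and 1 oligodendrocyte marker, and by 0 in the other lists. Of the choroid plexus genes 9 of 10 were lower, with a median log2 fold change of -0.22. Without HT 4 this median was -0.26. Of the 12 microglial markers 12 were lower (median -0.21, and -0.32 without HT 4), of the 12 proliferation markers 11 (-0.17 and -0.26), and of the 12 neural stem and radial glia markers 10 (-0.11 and -0.14), all with overlapping sums. Neuronal markers were 7 higher and 5 lower (median 0.03, and 0.03 without HT 4), and their sum was lowest in HT 4 (258243, against up to 292129 in the other HT libraries and 272037 to 279711 in WT). Oligodendrocyte markers were 9 of 12 higher (median 0.08, and 0.02 without HT 4), endothelial markers 8 of 10 lower (-0.04 and -0.09) and erythroid markers 6 of 6 tested higher (0.48 and 0.42). HT 4 had the highest sum of all 10 libraries for the markers of neural stem cells and radial glia (44026, WT up to 38974), the oligodendrocyte lineage (21879, WT up to 18281) and endothelium (7489, WT up to 7229), and the highest of the HT libraries for proliferation (8418) and microglia (3470). No marker in any list passed an adjusted limma p of 0.05.

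The balance between paralogs was compared next as a log2 ratio of normalised counts within each library. In it the library scaling cancels, and so does a length effect that all libraries share. The correlation with length differed between libraries (-0.38 in HT 4), and such a difference need not cancel between paralogs of unlike length. Of 5 ratios, 0 differed by the two-sided exact permutation test, and all 5 had overlapping groups. *Smarca4*/*Smarca2* was 0.57, 0.42, 0.51, 0.31 and 0.58 in HT and 0.47, 0.39, 0.50, 0.57 and 0.42 in WT. HT 4 had the lowest ratio of all libraries, and the other 4 HT libraries lay between 0.42 and 0.58. The mean difference was 0.00 ± 0.06 (SE), exact p 0.968.

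With all libraries the largest difference was that of *Smarcd1*/*Smarcd3*, which was 0.35, 0.38, 0.48, 0.06 and 0.37 in HT and 0.38, 0.47, 0.51, 0.44 and 0.45 in WT. In 3 of the 5 HT libraries, HT 1, 4 and 5, it was below every WT library. The mean difference was -0.12 ± 0.07 (SE), with an exact p of 0.103 and 0.397 after adjustment over the 5 ratios. It shrank to -0.06 (exact p 0.159) without HT 4. *Smarcd2*/*Smarcd3* differed by -0.11 ± 0.07 (exact p 0.159, adjusted 0.397), and by -0.15 without HT 4 (exact p 0.0714, adjusted 0.265). *Smarcc1*/*Smarcc2* differed by -0.03 ± 0.06 (exact p 0.579), and by -0.07 without HT 4 (exact p 0.159). *Smarcd1*/*Smarcd2* differed by -0.02 ± 0.13 (exact p 0.929), and without HT 4 in the other direction, by 0.10 (exact p 0.262).

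**Figure D3:**
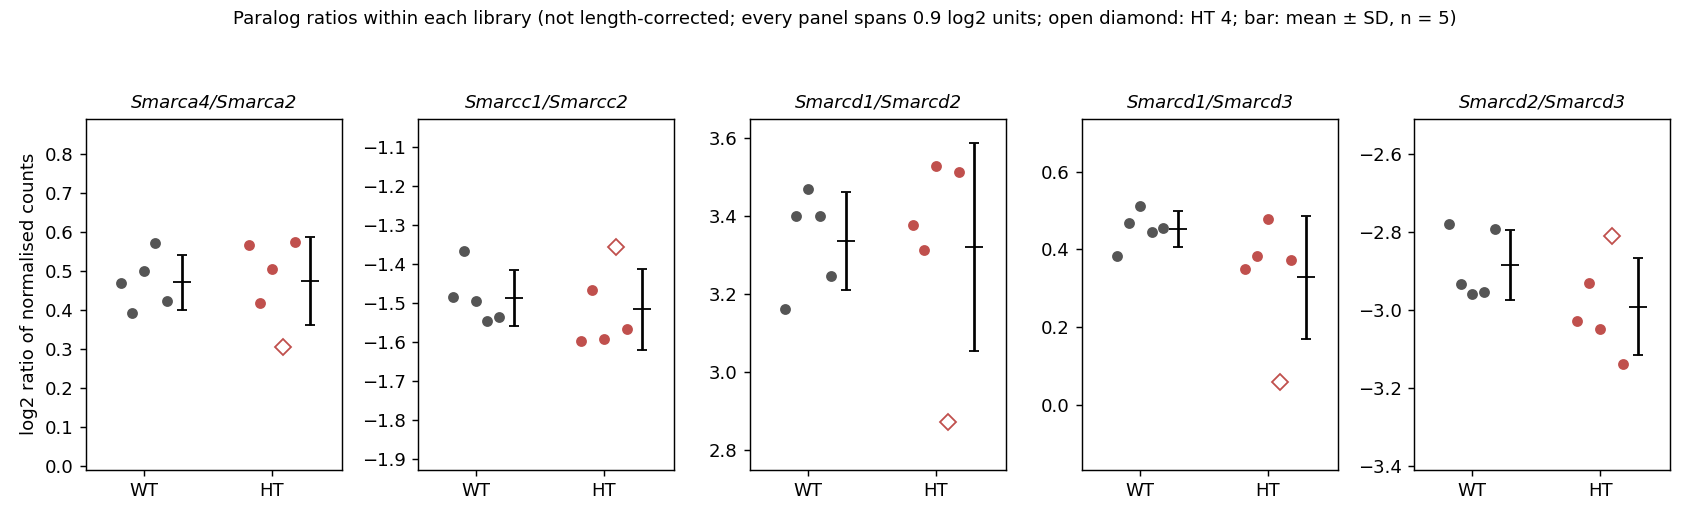
Log2 ratio of the normalised counts of paralogs within each library, WT in grey and HT in red, with black bars for the mean ± SD of 5 libraries and an open diamond for HT 4. Every panel spans the same 0.9 log2 units, and the groups overlap in each; HT 4 is the lowest library for *Smarca4*/*Smarca2*, *Smarcd1*/*Smarcd2* and *Smarcd1*/*Smarcd3*.

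Each core gene was then set against *Arid1b* in the same library, to test whether the difference of the core gene was unlike that of the edited gene. All 9 ratios were higher in HT, by 0.64 (*Smarcc1*) to 0.78 (*Smarcd3*) on the log2 scale or 1.56- to 1.71-fold, and the groups did not overlap in any. The exact p was 0.00794 for each, the smallest possible, and 0.00794 after adjustment over the 9. All 9 share the *Arid1b* values, so they are not independent of each other. *Arid1b* alone already separated the groups (-0.68), so a gene with little difference of its own gives a ratio of about this size. Over all genes the median absolute log2 fold change was 0.0611. The share of all genes whose ratio to *Arid1b* separates the groups was not computed, so these ratios show nothing particular to the core genes. The log2 ratio of *Smarcc2* to *Arid1b* had the smallest spread among the HT libraries (SD 0.06), at 2.30, 2.33, 2.34, 2.47 and 2.37 in HT and 1.69, 1.62, 1.65, 1.69 and 1.80 in WT. For this pair HT 4 was close to the other HT libraries, since both counts were low in it. Without HT 4 the 9 differences were between 0.49 (*Smarcd2*) and 0.64 (*Smarcc2*), 1.40- to 1.56-fold, each with an exact p of 0.00794, the smallest possible for 4 against 5.

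**Figure D4:**
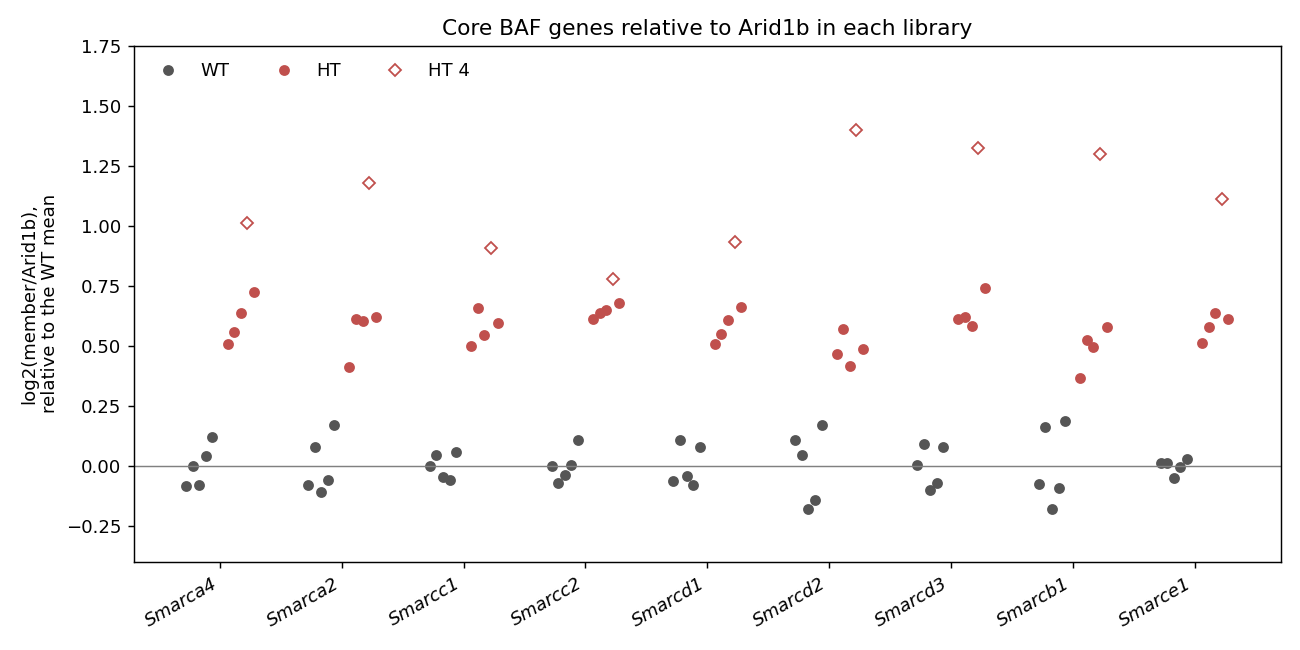
Log2 ratio of each core gene to *Arid1b* in each library, drawn relative to the mean of the WT libraries for that gene; grey circles are WT, red circles HT and open diamonds HT 4. In each of the 9 genes all 5 HT libraries lie above all 5 WT libraries, and HT 4 is the highest.

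Levels of different genes were compared per 1000 bases of transcript, and the outcome depended on which length was used. The median length of the coding transcripts is 834 bases for *Smarca2*, which has 27 annotated coding transcripts, and 712 bases for *Smarcd1*, whereas their longest coding transcripts have 5921 and 3307 bases. By the median length *Smarca2* stood first, at 7322 normalised reads per 1000 bases over the 10 libraries. By the longest transcript and by the union of exons *Smarcc2* stood first, at 2354 and 1935. *Smarcd2* was the lowest by all 3 measures and in 10 of 10 libraries, with 159, 147 and 113 normalised reads per 1000 bases, 3.06- to 7.65-fold below the next gene.

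With the longest transcript, *Smarcc2* (2354) was followed by *Smarcd3* (1787), *Smarcb1* (1647), *Smarca4* (1330), *Smarcd1* (1230), *Smarce1* (1215), *Smarca2* (1031), *Smarcc1* (656) and *Smarcd2* (147) normalised reads per 1000 bases. Neighbours whose ranges over libraries overlapped were *Smarcc2* and *Smarcd3*, *Smarcd3* and *Smarcb1*, *Smarca4* and *Smarcd1*, and *Smarcd1* and *Smarce1*, which kept this order in 9, 8, 9 and 7 of 10 libraries. For *Smarcc2* and *Smarcd3* the overlap came from HT 4 (1823 against 1958), and in the other 9 libraries the lowest *Smarcc2* value (2121) was above the highest *Smarcd3* value (1882). *Smarcb1* and *Smarca4*, *Smarce1* and *Smarca2*, *Smarca2* and *Smarcc1*, and *Smarcc1* and *Smarcd2* kept their order in 10 of 10 libraries without overlap.

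Within families, *Smarcc2* made up most of the scaffold pair by every measure, at 64.2%, 78.0% and 79.8% of the pair in WT by the median, longest and union lengths. In the SMARCD family, *Smarcd2* was the smallest share by every measure (2.08%, 4.74% and 6.59% in WT), while *Smarcd1* led by the median and union lengths (75.2% and 59.3%) and *Smarcd3* by the longest (55.5%). The share of *Smarca4* in the ATPase pair was 16.4%, 56.3% and 75.3% in WT by the same 3 lengths, so which ATPase mRNA was the more abundant cannot be told from these values. The shares in HT were close to those in WT under each measure: by the longest transcript, *Smarca4* was 56.3% ± 1.93 of its pair in HT and 56.3% ± 1.20 in WT, and *Smarcd3* was 57.5% ± 2.16 of its family in HT against 55.5% ± 0.603 in WT (SD over 5 libraries). These shares were not tested, since the ratios above carry the same comparison. Summed by role with the longest transcript, the 3 SMARCD genes gave 3211 ± 61.1 normalised reads per 1000 bases in HT and 3118 ± 58.1 in WT, the scaffold pair 2999 ± 348 and 3021 ± 152, and the ATPase pair 2366 ± 77.9 and 2358 ± 77.1.

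**Figure D5:**
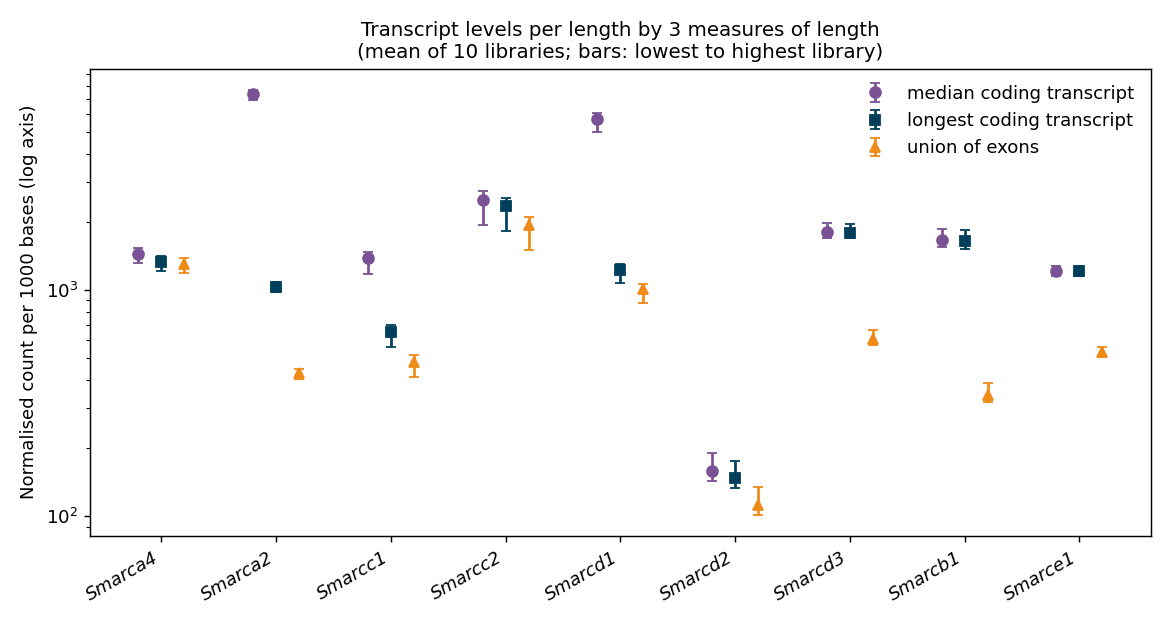
Normalised reads per 1000 bases of transcript (log axis) for the 9 core genes, by the median coding transcript (purple circles), the longest coding transcript (blue squares) and the union of exons (orange triangles); points are means of 10 libraries and bars run from the lowest to the highest library. *Smarcd2* is lowest by all 3, and *Smarca2* runs from 7322 to 428 as the length measure changes.

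The rest of the complex was read from a list of 18 further BAF subunits, and 0 of the 18 differed at an adjusted limma p under 0.05. The list divided into 3 higher and 15 lower genes (median log2 fold change -0.03), and without HT 4 the division was 12 higher and 6 lower with a median of 0.02. *Brd7*, a bromodomain subunit of the PBAF form, was the highest at 0.15 and the 1 gene of the 18 with an unadjusted limma p under 0.05 (p 0.0447, adjusted 1.00), against 3.41% of all genes. Its exact permutation p was 0.0794, and leaving out any 1 of 5 of the 10 libraries (HT 2, HT 3, WT 1, WT 2 or WT 4) took the unadjusted limma p to between 0.0761 and 0.127. *Actl6a*, the actin-related subunit of progenitors that *Actl6b* replaces in neurons, was the lowest at -0.18. Its value was -0.28 without HT 4 (limma p 0.00345, adjusted 0.446).

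The genes whose pattern over the 10 libraries was most like that of each ATPase were read as a description, with no test. For *Smarca4* they were *Cadps*, a priming factor of dense-core vesicles (Pearson r 0.956, Spearman rho 0.891), *Grip2*, a scaffold of glutamate receptors (0.942 and 0.867), and *Zgpat*, a zinc-finger repressor (0.937 and 0.952). For *Smarca2* they were *Rdh14*, a retinol dehydrogenase (0.928 and 0.927), *Rabep2*, a RAB effector (0.919 and 0.879), and *Ralyl*, an RNA-binding protein gene (0.916 and 0.891). The Pearson r stayed between 0.895 and 0.952 without HT 4 and between 0.824 and 0.904 without the 2 libraries farthest from the median of the ATPase. These are the highest of 17019 values each, over libraries that share their scaling.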

How the data were processed

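RNA-sequencing libraries of 5 HT and 5 WT whole brains were grouped by the sample labels. Per the labels and the methods of the study, the authors quantified reads with Salmon 1.1.0 against GRCm38 with GC-bias correction, imported gene-level estimates with tximport and scaled them with DESeq2 1.30.1 (R 4.1.1 in the labels). The annotation release and any filter on low genes are not given in the sources used here. Each signal value in the deposited table is a normalised read count, that is, Salmon's read estimate for a gene over the size factor of its library. The values were not whole, so count models were not run on them, and raw depth is unknown.

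Differences were tested on log2(value + 1) with limma 3.58.1 (R 4.3.3; trend and robust empirical Bayes, two-sided, no covariate) for genes with a mean of at least 10, with Benjamini-Hochberg adjustment over all 17020 genes, after the limma step had been tested on simulated data. Fold changes are on this scale. Single genes and ratios were compared with exact permutation tests over 252 assignments (Python 3.11.15). Positions, lengths and shared 31-base words came from GENCODE M21, in which 18431 of the 18444 genes were matched, and promoters from RefSeq. Named genes were the 9 core genes, *Arid1b*, further BAF subunits with an unadjusted p under 0.05 or the highest or lowest change, and the 3 genes most correlated with each ATPase. The members and lists were chosen with earlier results of these data known. Alternatives changed the pseudocount (0.5 or 8), the filter (none or 100), the scaling, the weights, the replicate block, a length and GC trend (loess span 0.3) and the libraries used. Trend removal on the longest transcript, and its combination with leaving out HT 4, were chosen after seeing the data.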

Additional observations from a re-analysis of the deposited data

Results flagged for a closer look

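A library was taken to lie far from its group when its gap to the nearest of the others, as a share of the range of the group, was above the Dixon limit for 5 samples. Of 52 groups of 5 libraries checked, 2 for each of 26 results, 9 passed that limit, where chance gives about 1 in 20 (2.6), and in all 9 the far library was HT 4. The 52 groups reuse the same 10 libraries, and the ratios reuse the same genes. They are not independent, so 9 against 2.6 cannot be read as an excess over chance.

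*Smarcc2* was low in HT 4, with 8317 normalised reads against 11053 in the nearest HT library (share of the range 0.810). *Smarcb1* was high in it, with 3067 against 2654 (0.774). *Arid1b* was low, with 1505 against 2142 (0.735), and *Actl6a* was high, with 548 against 399 (0.841). The log2 ratio to *Arid1b* was highest in HT 4 for *Smarca2* (2.05 against 1.49, share of the range 0.729), *Smarcb1* (1.03 against 0.31, 0.774), *Smarcd2* (-1.64 against -2.46, 0.841), *Smarcd3* (1.17 against 0.59, 0.784) and *Smarce1* (1.20 against 0.72, 0.791). These 5 ratios share the low *Arid1b* value of HT 4. The cause of the distance of HT 4 was not tested.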

How the results depend on the processing

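No paralog ratio was called under the 17 settings run for the ratios. In the replicate block no ratio could be called, since the smallest exact p that 5 pairs allow is 0.0625. *Smarcd1*/*Smarcd3* had this p there. Without HT 3 its exact p was 0.0159, and 0.0794 after adjustment over the 5 ratios. None of the 9 core genes and none of the 18 further subunits passed an adjusted limma p of 0.05 under any of the 24 settings. Over all genes at most 2 higher and 1 lower passed in any setting, so these counts of 0 are not particular to the BAF genes. With library weights *Arid1b* passed (-0.60), and likewise with the length and GC trend removed (-0.63; -0.57 also without HT 4; with the longest transcript -0.64, and -0.61 also without HT 4). Leaving out 1 library moved *Arid1b* between -0.73 (without HT 1) and -0.57 (without HT 4, the 1 omission under which it passed). For the replicate block, 4 of 5 HT libraries correlated best with the WT library of their own number, HT 4 being the exception. The 5 same-number correlations ran from -0.10 to 0.09. That of HT 4 with WT 5, a pair of unlike number, was higher than all of them, at 0.14. Whether the numbers pair the mice cannot be told from these values or from the labels. The main tests took the mice as unpaired, and the block is given beside them. The block left 0 of 9 core genes called, 219 higher and 339 lower genes at an unadjusted p under 0.05 (251 and 329 without it), and *Smarcd3* at a p of 0.112. The replicate block also left all 9 ratios to *Arid1b* at an exact p of 0.0625, the smallest that 5 pairs allow, with the same differences (0.69 for *Smarca2*, *Smarca4* and *Smarce1*, 0.65 for *Smarcb1* and *Smarcd1*, 0.67 for *Smarcc2* and *Smarcd2*, 0.64 for *Smarcc1* and 0.78 for *Smarcd3*).

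Small differences changed sign. *Smarca2* became -0.0032 with equal library totals, -0.0053 with quantile normalisation and -0.024 with the trend of the longest transcript removed without HT 4; *Smarca4* became -0.00078 and -0.0082 with the first and second of these. *Smarcc2* became 0.053 with library weights, 0.017 and 0.013 with the trend removed (median and longest length), and 0.086 and 0.089 also without HT 4, where its unadjusted p was 0.0442 and 0.0384. In the last 2 settings *Smarcd3* also had an unadjusted p under 0.05 (0.0270 and 0.0176), making 2 of the 9 genes. Such a p was more frequent over all 17020 genes in these fits too. It was reached by 903 higher and 524 lower genes in the first and by 795 and 551 in the second, against 251 and 329 in the main fit. Without HT 3 *Smarcd3* had a p of 0.0369, and 219 higher and 272 lower genes had one under 0.05. *Smarcd1* became 0.0070 with weights, and 0.063 and 0.035 with the trend removed without HT 4, and *Smarcc1* 0.0081 with the trend of the median length removed without HT 4. Leaving out 1 library gave -0.011 to 0.023 for *Smarca2*, -0.015 to 0.040 for *Smarca4*, -0.071 to 0.0084 for *Smarcc1*, -0.049 to 0.078 for *Smarcc2*, -0.048 to 0.016 for *Smarcd1*, -0.081 to 0.020 for *Smarcd2* and -0.0100 to 0.023 for *Smarce1*. It gave -0.023 to 0.044 for *Smarca4*/*Smarca2*, -0.069 to 0.00031 for *Smarcc1*/*Smarcc2* and -0.068 to 0.097 for *Smarcd1*/*Smarcd2*, and the last became 0.093 with the trend of the longest transcript removed without HT 4. The cause was not tested.

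The share of a gene in its family follows from the length used. In WT, with the longest transcript and with the union of exons in turn, it was 56.3% and 75.3% for *Smarca4*, 43.7% and 24.7% for *Smarca2*, 22.0% and 20.2% for *Smarcc1*, 78.0% and 79.8% for *Smarcc2*, 39.8% and 59.3% for *Smarcd1*, 4.74% and 6.59% for *Smarcd2*, and 55.5% and 34.1% for *Smarcd3*. Raw depth is unknown, so no counting interval can be given.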
